A study of Mus musculus with 4 samples.

Results

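The genes described here are 38 genes of DNA replication and S phase, taken by symbol from 55421 gene identifiers in the deposited table. They cover origin licensing, the MCM helicase, DNA polymerases, nucleotide supply, chromatin copying and the G1/S regulators that switch these genes on. The rule takes genes by symbol and uses no measured value, but the members were chosen with earlier results of these data known. Each symbol matched 1 identifier, and all 38 were among the 18547 genes with enough signal to be tested.

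Neural stem cells positive for YFP, a fluorescent reporter, were sorted from adult mice and their RNA was sequenced in 2 Opa1 KO and 2 WT libraries. Opa1 encodes a GTPase of the inner mitochondrial membrane needed for mitochondrial fusion and normal cristae. The study compared the genotypes to learn how adult neural stem cells and their progeny respond when Opa1 is deleted. The Opa1 KO cells came from Nestin-CreERT2:Rosa26YFP mice that also carried floxed Opa1 alleles. The cells labelled WT came, by the study's methods, from control mice with the same Cre and YFP reporter and unfloxed Opa1. Both genotypes were on a C57BL/6 background, were young adults of both sexes, and received tamoxifen before the sort, at an interval that differs between the study's methods and its discussion. The Cre acts in Nestin-expressing cells and the reporter stays on in their descendants, so the sorted cells hold stem cells together with progeny at other stages. By the study's text the tissue was the subventricular zone, a stem cell niche beside the lateral ventricles. Whether each library is 1 animal or a pool is not in the labels, and p-values therefore measure only how far these samples spread, which may be technical.

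DNA replication starts in G1, when the origin recognition complex, Cdc6 and Cdt1 load the ring-shaped MCM helicase onto DNA. In S phase Cdc45 and the GINS complex join the MCM ring to make the active helicase. Polymerase alpha with primase lays down primers, polymerases delta and epsilon copy the strands on the sliding clamp Pcna, and Fen1 and Lig1 join the Okazaki fragments. Most of these genes are transcribed at the G1/S boundary by E2F factors, and in the adult subventricular zone they mark the dividing stem cells, transit amplifying cells and early neuroblasts, while quiescent stem cells express them at low levels.

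The promoters were searched for E2F words because E2F control is the best known feature that these genes share. The rule names no promoter sequence. Since most of the genes are known to be transcribed by E2F factors, the share with a word is not independent of their choice. RefSeq windows on GRCm38.p6 ran 250 bases before to 50 bases after each gene's start and were found for 32 of the 38 members, the others being Mcm4, Rfc2, Ccne2, Pole, Gins2 and Gins1. The E2F words were TTTCCCGC, TTTCGCGC, TTTGCCGC and TTTGGCGC on either strand, which can overlap each other. They occurred in the windows of 13 of the 32 members, or 40.6% (Wilson 95% interval 25.5 to 57.7%). Of all 27025 genes with a window 2.60% held such a word, and of the 12247 tested genes with a window 4.36% did. The word CCAAT, or ATTGG on the other strand, known as the binding motif of NF-Y, occurred in 17 of 32 members, or 53.1%, against 41.1% of all genes. The word TTTGAA, on either strand the core of the CHR element known from promoters of late cell cycle genes, occurred in 3 of 32 members, or 9.38%, against 20.2% of all genes. Of the tested genes with a window, 42.5% held CCAAT and 14.6% held TTTGAA. The Wilson 95% intervals of the members, 36.4 to 69.1% for CCAAT and 3.24 to 24.2% for TTTGAA, include these shares and those of all genes. A match is a description of the letters and no evidence that a factor binds there.

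The Mcm genes show how these words are placed. The stretch before the start of Mcm6 holds 3 E2F words and 2 CCAAT words, all in capitals, and 2 of the E2F words overlap on opposite strands. It covers the 150 bases before the start at chr1:128359706-128359855, minus strand:
Mcm6: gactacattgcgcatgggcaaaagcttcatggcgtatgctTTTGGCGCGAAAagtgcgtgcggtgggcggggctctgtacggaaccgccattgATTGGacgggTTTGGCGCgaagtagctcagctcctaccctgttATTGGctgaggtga
The same 150 bases before Mcm2, at chr6:88898781-88898930 on the minus strand, hold neither an E2F nor a CCAAT word. The searched window of Mcm2 does hold a CCAAT word, at position -175, outside this stretch. The stretch also holds the word TTTGAA, left in lower case, and is shown as the contrast in E2F words within the family:
Mcm2: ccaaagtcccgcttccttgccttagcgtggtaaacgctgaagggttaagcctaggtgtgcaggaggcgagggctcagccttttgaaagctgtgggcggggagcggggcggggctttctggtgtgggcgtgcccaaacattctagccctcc
Shorter stretches of 30 bases around an E2F word, in capitals, are given for the other Mcm genes that hold one and for 4 members of other roles, to show that the word stands on either strand. They lie at chr1:20820275-20820304 (Mcm3, minus), chr8:75109349-75109378 (Mcm5, plus), chr5:138171849-138171878 (Mcm7, minus), chr4:108579416-108579445 (Orc1, plus), chr11:98908002-98908031 (Cdc6, plus), chrX:93632275-93632304 (Pola1, minus) and chr17:56304117-56304146 (Uhrf1, plus):
Mcm3: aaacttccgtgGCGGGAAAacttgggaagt
Mcm5: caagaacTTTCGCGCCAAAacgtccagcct
Mcm7: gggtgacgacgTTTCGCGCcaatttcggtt
Orc1: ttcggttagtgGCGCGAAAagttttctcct
Cdc6: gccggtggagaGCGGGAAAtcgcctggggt
Pola1: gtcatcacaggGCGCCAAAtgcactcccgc
Uhrf1: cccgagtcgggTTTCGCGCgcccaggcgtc
In Mcm5 the capitals run through 2 words that overlap on opposite strands. The other 5 members with a word were Cdt1, Hells, Lig1, Pold1 and Rfc3. In Mcm10 the search found 2 CCAAT words and no E2F word in the 150 bases before the start.

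All values below are read counts per gene that the authors divided by 1 size factor per library. The libraries held 19985853 and 22285901 reads on genes in Opa1 KO, against 23237326 and 22825629 in WT, so depth differed little. Opa1, the targeted gene, had values of 837 and 739 in Opa1 KO (788 ± 69.2, SD, n = 2) against 3039 and 2833 in WT (2936 ± 145). Its log2 fold change was -1.90 (SE 0.13). Its adjusted p was 1.59e-25 with DESeq2 and 0.998 with limma-trend, the main test, which called 0 of the 18547 genes (0.0%). At an unadjusted p under 0.05 limma-trend had 196 genes lower in Opa1 KO (1.06%) and 470 higher. The edgeR quasi-likelihood test called 0 genes as well, with 704 at an unadjusted p under 0.05, while DESeq2 called 65 of 14232 genes with an adjusted p (0.457%), 16 lower and 49 higher.

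Every one of the 38 replication genes had a lower mean in Opa1 KO than in WT, and none of them passed limma-trend, edgeR or DESeq2 with genotype as the only term. A lower mean was found for 51.0% of all genes tested. The median log2 fold change of the members was -0.28, from -0.74 for Fen1 to -0.080 for Cdt1, beside a median of -0.0073 over all genes tested. None of the 38 was called by limma-trend, edgeR or DESeq2, and none had an unadjusted p under 0.05 in any of these 3 tests. The smallest limma-trend p was 0.135, for Rrm2, and the adjusted p was 0.998 for each member. Summed over the members, the level was 95417 and 59806 in Opa1 KO against 115210 and 78529 in WT, a ratio of 0.801 between the means. In such bulk samples, fewer dividing cells and less replication RNA per cell cannot be told apart.

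The libraries of each genotype lay further apart than the genotypes did. Replicate 1 was above replicate 2 in both genotypes for all 38 members, beside 38.8% of all genes tested. The median difference between replicates was 0.67 on the log2 scale in Opa1 KO and 0.61 in WT, both larger than the median difference of -0.28 between the genotypes. For 33 of 38 members, replicate 1 exceeded replicate 2 in both genotypes by more than the genotypes differed, beside 19.7% of all genes tested. That share counts no gene with replicate 2 above replicate 1 in either genotype, whatever the size of the gap. Opa1 KO replicate 1 was above WT replicate 2 for 37 members, the exception being Rfc2. Both Opa1 KO libraries were below both WT libraries for 1 of 38 members, Rfc2, beside 15.7% of all genes tested. The share of members without overlap was thus below that of the genome, although their means all lay on 1 side.

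**Figure D1:**
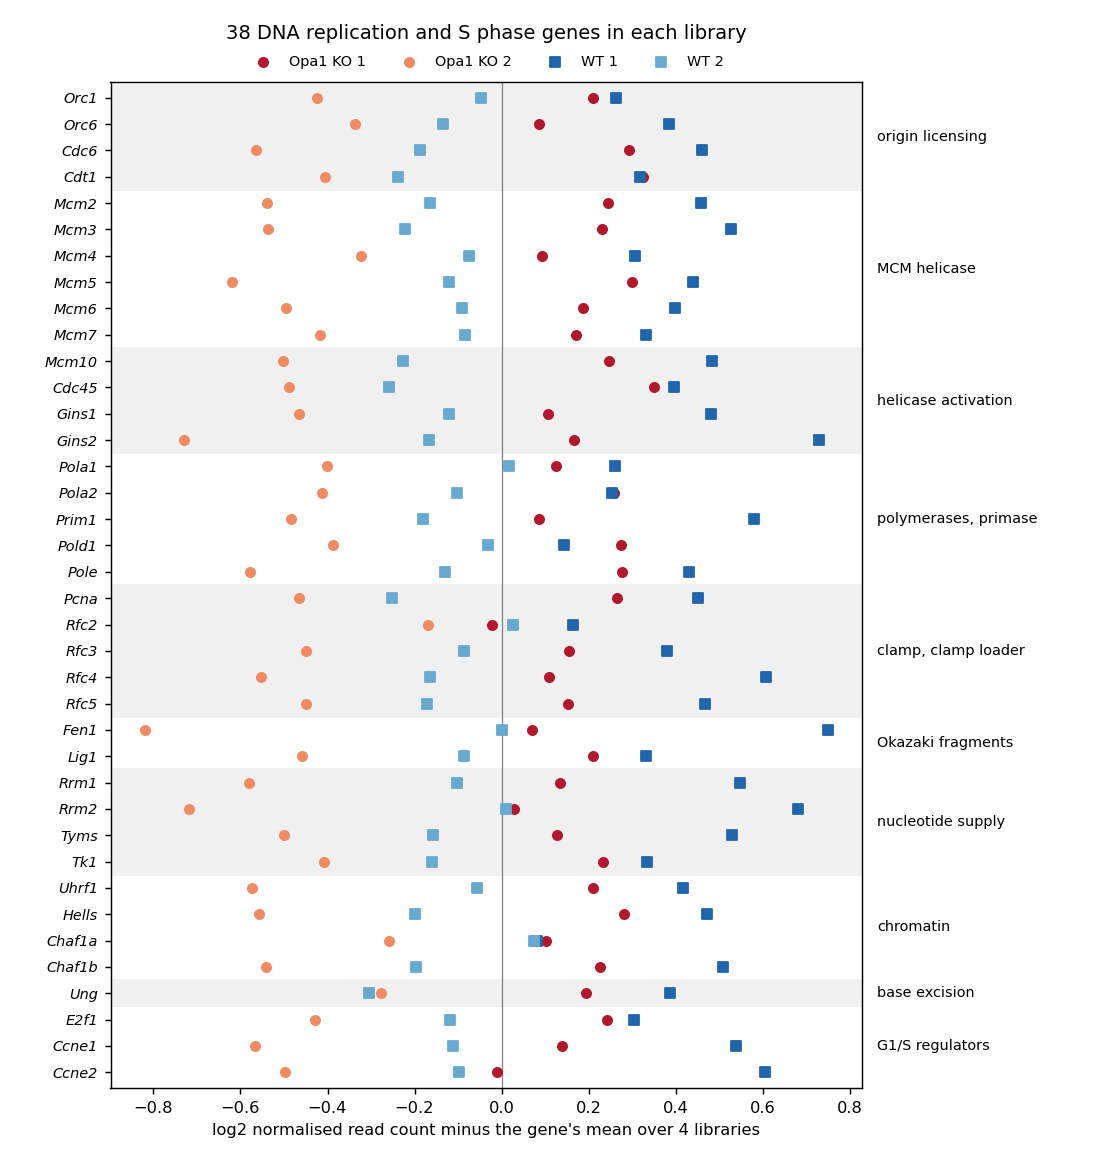
Level of each of the 38 members in each library, as the log2 of the normalised read count minus the gene's mean over the 4 libraries, with Opa1 KO as circles, WT as squares and the genes ordered by role. For 32 members the order is WT replicate 1, Opa1 KO replicate 1, WT replicate 2 and Opa1 KO replicate 2 from high to low.

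Most members kept a single order of libraries. In 32 of 38 the order from high to low was WT replicate 1, Opa1 KO replicate 1, WT replicate 2, Opa1 KO replicate 2. In Cdt1, Chaf1a, Pola2 and Pold1 the highest library was Opa1 KO replicate 1. In Ung the lowest was WT replicate 2, which left Opa1 KO replicate 2 lowest for the other 37 members. Between libraries that share a number, the median difference of Opa1 KO from WT was -0.21 for replicate 1 and -0.35 for replicate 2 on the log2 scale. The labels do not say that a shared number marks a shared batch, litter or day. Opa1 KO was below WT in both same-number comparisons for 33 of 38 members, beside 33.1% of all genes tested. All 38 members kept a lower mean without Opa1 KO replicate 1 and without WT replicate 2. Without Opa1 KO replicate 2, 14 members had a lower mean and the median log2 fold change was 0.040, and without WT replicate 1 it was 23 members and -0.033.

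**Figure D2:**
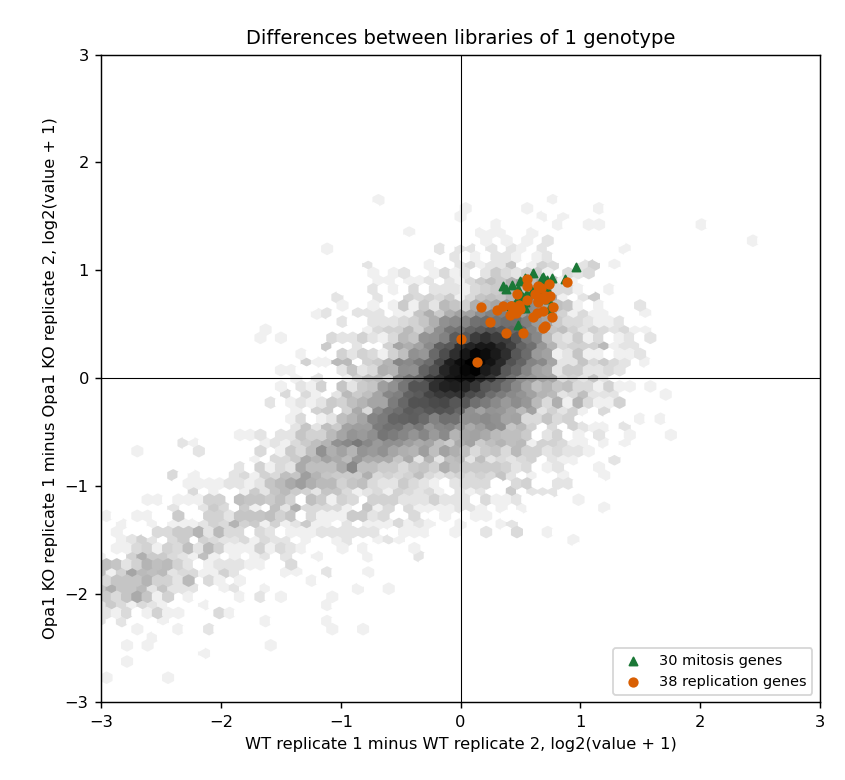
Difference between the replicates of each genotype on the log2(value + 1) scale, Opa1 KO on the vertical and WT on the horizontal axis, for the 38 replication genes, 30 mitosis genes and, in grey by the log of their number, all genes tested (242 lie outside the axes). All 38 replication genes lie to the upper right of the origin, where replicate 1 is above replicate 2 in both genotypes.

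The median log2 fold change was -0.23 for the origin licensing genes, the smallest of the roles with several genes. Orc1, the largest subunit of the origin recognition complex, had values of 219 and 141 in Opa1 KO against 227 and 183 in WT, a log2 fold change of -0.21 (SE 0.30). Orc6, the smallest subunit of that complex, had 1447 and 1080 in Opa1 KO against 1782 and 1243 in WT (-0.25, SE 0.25). In both genes the Opa1 KO range overlapped the WT range. Cdc6, the ATPase that recruits the helicase to the origin, had 1175 and 649 in Opa1 KO against 1320 and 843 in WT (-0.27, SE 0.39). Cdt1, the loader that geminin inhibits, had 973 and 587 in Opa1 KO against 968 and 659 in WT. Its log2 fold change of -0.080 (SE 0.34) was the smallest of all members, and its highest library was from Opa1 KO.

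The 6 subunits of the MCM helicase differed from one another by little. Mcm2 had 4854 and 2820 in Opa1 KO against 5634 and 3656 in WT (log2 fold change -0.29, SE 0.37). Mcm5 had 5104 and 2701 in Opa1 KO against 5623 and 3816 in WT (-0.32, SE 0.40), the largest difference of the 6. Mcm4 had 4193 and 3141 in Opa1 KO against 4861 and 3731 in WT (-0.23, SE 0.22), the smallest. Mcm3 at -0.30, Mcm6 at -0.31 and Mcm7 at -0.25 lay between them, so all 6 lay within 0.088 log2 units, less than any of their standard errors. In each subunit WT replicate 1 was the highest library and Opa1 KO replicate 2 the lowest.

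Per kilobase of exon, the 6 subunits ranged from 552 (Mcm2) to 1328 (Mcm6) normalised reads in Opa1 KO and from 668 (Mcm2) to 1623 (Mcm6) in WT. Mcm6 had 1328 ± 436 in Opa1 KO and 1623 ± 385 in WT, and Mcm7 had 1262 ± 360 in Opa1 KO and 1483 ± 300 in WT (SD, n = 2 each). These neighbours in the order did not differ beyond their spread. Mcm2, at 552 ± 207 in Opa1 KO and 668 ± 201 in WT, was the lowest of the 6 in both genotypes. The proteins form the ring in equal copies.

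Among the genes that activate the helicase, Cdc45, a subunit of the active helicase, had 1442 and 806 in Opa1 KO against 1489 and 945 in WT (-0.14, SE 0.39). Mcm10, which helps to start unwinding, had 1051 and 625 in Opa1 KO against 1238 and 756 in WT (-0.25, SE 0.38). The GINS subunits had larger differences between the means. Gins1 had 688 and 462 in Opa1 KO against 892 and 587 in WT (-0.36, SE 0.31), and Gins2 had 313 and 168 in Opa1 KO against 463 and 249 in WT (-0.56, SE 0.47). In all 4 genes the second library of each genotype was the lower one.

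The polymerase genes held 2 of the members whose highest library was from Opa1 KO. Pold1, the catalytic subunit of polymerase delta, had 1728 and 1093 in Opa1 KO against 1578 and 1399 in WT (-0.11, SE 0.26). Pola2, the regulatory subunit of polymerase alpha, had 1643 and 1032 in Opa1 KO against 1639 and 1280 in WT (-0.15, SE 0.28). For both, the Opa1 KO libraries enclosed the WT libraries. Pola1, its catalytic subunit, had 1976 and 1373 in Opa1 KO against 2172 and 1835 in WT (-0.28, SE 0.22). Pole, the catalytic subunit of polymerase epsilon, had 2082 and 1151 in Opa1 KO against 2315 and 1570 in WT (-0.30, SE 0.38). Prim1, the catalytic subunit of primase, had the largest difference of this role, with 1925 and 1295 in Opa1 KO against 2709 and 1599 in WT (-0.40, SE 0.35).

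Among clamp and clamp loader genes, Rfc2 was the only member without overlap between the genotypes. It encodes a small subunit of replication factor C, the complex that loads the clamp, and lies at chr5:134581366-134601805 on the plus strand of mm10. Its values were 2134 and 1926 in Opa1 KO (2030 ± 147, SD, n = 2) against 2428 and 2207 in WT (2318 ± 156), a log2 fold change of -0.19 with the smallest standard error of the members, 0.13. Its limma-trend p was 0.205 before adjustment. Pcna, the sliding clamp, had 5806 and 3496 in Opa1 KO against 6607 and 4056 in WT (-0.20, SE 0.37). Named for Pcna are 2 annotated pseudogenes, and it is uncertain how reads shared with them were counted. Rfc4 had 934 and 591 in Opa1 KO against 1320 and 772 in WT (-0.44, SE 0.38), while Rfc3 and Rfc5 had log2 fold changes of -0.29 and -0.30. Apart from Rfc2, each of these genes had its Opa1 KO replicate 1 above its WT replicate 2.

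Fen1, the flap nuclease that trims Okazaki fragments, had the largest fold difference and the lowest normalised read counts before division by exon length. Its values were 81.6 and 44.0 in Opa1 KO against 131 and 77.8 in WT (-0.74, SE 0.45). Of its exon bases, 84.2% are shared with genes on the opposite strand, among them Tmem258. The strand setting of the read counting is not given in the sources used here, so its level and its difference are uncertain. Gins2 (67.3% shared), Chaf1a (52.5%), Ccne2 (17.4%) and Rfc2 (15.1%) carry the same uncertainty to a smaller degree. Lig1, the ligase that seals the fragments, had 2031 and 1278 in Opa1 KO against 2211 and 1654 in WT (-0.25, SE 0.29).

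The genes of nucleotide supply had the lowest ratio between the genotypes of the roles with several genes. Their summed level was 20325 and 12379 in Opa1 KO against 28892 and 18296 in WT, a ratio of 0.693 between the means, beside 0.831 for the MCM helicase and 0.868 for licensing. Rrm2, the small subunit of ribonucleotide reductase that is made in S phase, lies at chr12:24708241-24714146 on the plus strand of mm10. It had 8473 and 5051 in Opa1 KO (6762 ± 2419, SD, n = 2) against 13328 and 8367 in WT (10847 ± 3508), a log2 fold change of -0.69 (SE 0.37). Its highest Opa1 KO library exceeded its lowest WT library by little. Rrm1, the large subunit, had 8757 and 5330 in Opa1 KO against 11652 and 7432 in WT (-0.45, SE 0.36). Tyms, thymidylate synthase, had 2366 and 1531 in Opa1 KO against 3128 and 1941 in WT (-0.37, SE 0.34), and 1 annotated pseudogene carries its name. Tk1, thymidine kinase of the salvage pathway, had 730 and 468 in Opa1 KO against 783 and 556 in WT (-0.17, SE 0.30).

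Per kilobase of exon, Rrm2 was the most abundant member, with 2440 ± 873 normalised reads in Opa1 KO and 3915 ± 1266 in WT (SD, n = 2 each). Pcna followed with 1938 ± 681 in Opa1 KO and 2221 ± 752 in WT, within the spread of Rrm2 in Opa1 KO. Mcm6 and Mcm7 came next. The lowest members were Fen1, with 25.9 in Opa1 KO and 43.0 in WT, where its libraries overlapped between the genotypes, and Ung, with 31.3 ± 7.18 in Opa1 KO and 33.7 ± 11.2 in WT, whose order differed between the genotypes. Orc1, at 51.7 ± 15.9 in Opa1 KO and 58.8 ± 8.91 in WT, was the lowest of the licensing genes.

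Genes that copy chromatin along with DNA had a median log2 fold change of -0.29, beside -0.28 for polymerase and primase genes. Uhrf1, which recruits the maintenance methyltransferase, had 4102 and 2383 in Opa1 KO against 4731 and 3409 in WT (-0.36, SE 0.34). Hells, a chromatin remodeller, had 1823 and 1019 in Opa1 KO against 2080 and 1307 in WT (-0.27, SE 0.39). Chaf1b, a subunit of the histone chaperone CAF-1, had 1334 and 784 in Opa1 KO against 1624 and 996 in WT (-0.31, SE 0.38). Its partner Chaf1a had 1307 and 1018 in Opa1 KO (1162 ± 205, SD, n = 2) against 1289 and 1284 in WT (1286 ± 3.89), so its WT libraries did not show the gap between replicates that other members had. Ung, a uracil-DNA glycosylase of base excision repair, had 199 and 144 in Opa1 KO against 228 and 141 in WT (-0.083, SE 0.34).

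The G1/S regulators that drive this programme had lower means as well. E2f1, an activating E2F, had 1296 and 814 in Opa1 KO against 1352 and 1009 in WT (-0.19, SE 0.29). The E-type cyclins, which activate Cdk2 at S phase entry, had larger differences than E2f1. Ccne1 had 495 and 303 in Opa1 KO against 654 and 416 in WT (-0.43, SE 0.36), and Ccne2 had 720 and 514 in Opa1 KO against 1103 and 678 in WT (-0.51, SE 0.32). In all 3 genes Opa1 KO replicate 1 lay between the WT libraries.

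**Figure D3:**
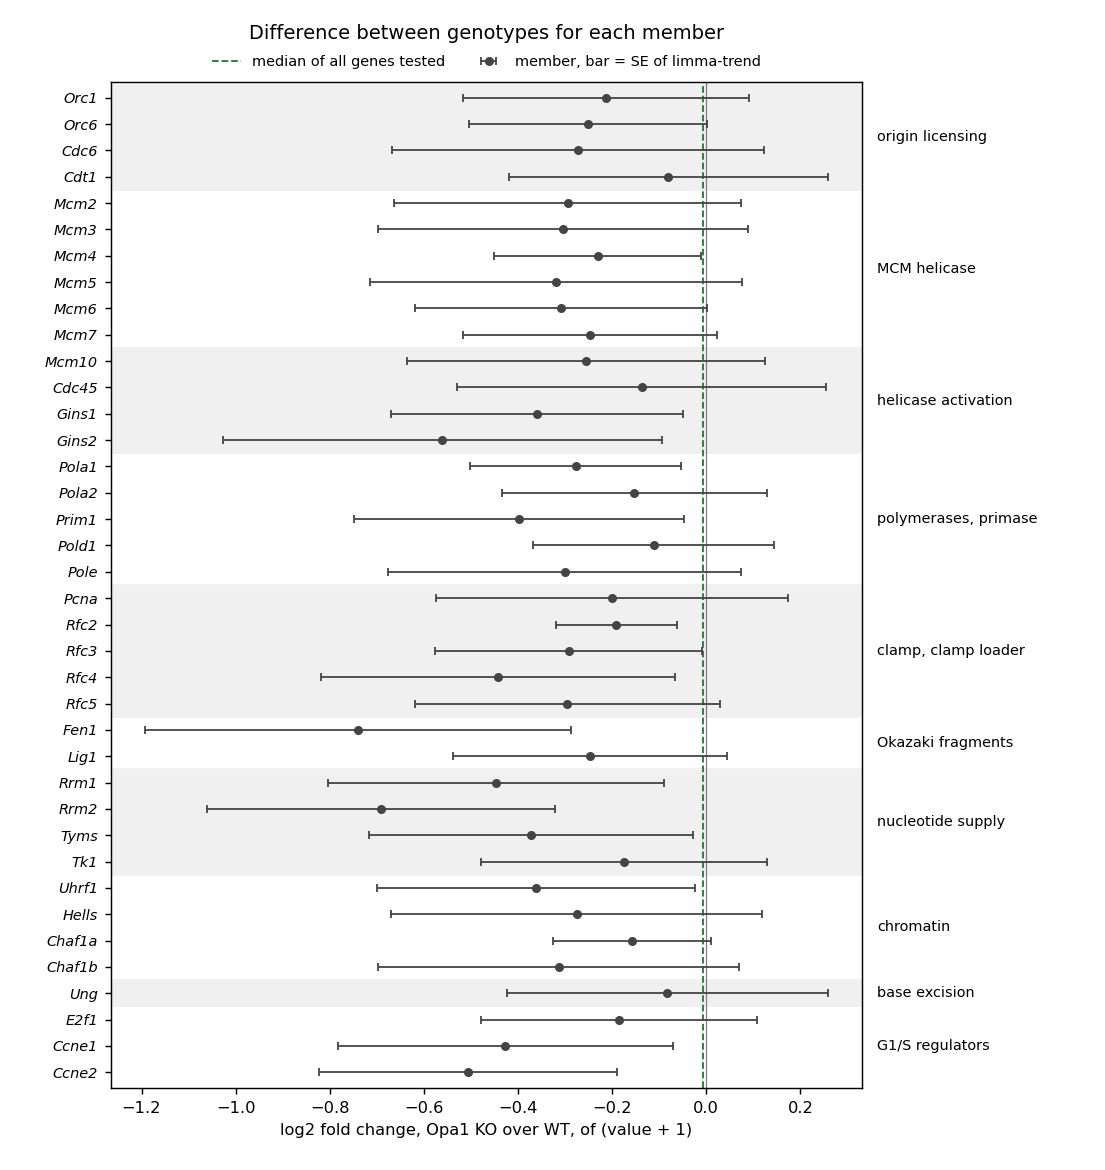
Difference between Opa1 KO and WT, as the log2 fold change of value + 1, for each of the 38 members, ordered by role, with the standard error of limma-trend as the bar and the median of all genes tested as the dashed line. All 38 points lie below 0, from -0.74 for Fen1 to -0.080 for Cdt1.

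The values of members with an E2F word overlapped those of the others, and the difference was not tested. The 13 members with a word had a median log2 fold change of -0.27, from -0.36 to -0.080. The 19 members whose window holds none had a median of -0.29, from -0.74 to -0.083, and the 6 members without a window had -0.33. The difference between replicates was 0.68 in Opa1 KO and 0.47 in WT for members with a word, and 0.67 in Opa1 KO and 0.65 in WT for members whose window holds none. Of the Mcm genes shown above, Mcm6 with 3 words had -0.31 and Mcm2 with none had -0.29.

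The rest of the replication pathway followed the same order of libraries. A further 49 genes, among them the other ORC, GINS, primase and polymerase subunits, replication protein A, the S phase kinase Cdc7 with Dbf4, topoisomerase and repair factors, were all tested and 0 were called in either direction by limma-trend or DESeq2. A lower mean of the log2 values in Opa1 KO was found for 46 of the 49, beside 51.0% of all genes tested, at a median log2 fold change of -0.22, and their summed level was 102305 and 70585 in Opa1 KO against 115570 and 85822 in WT. The 3 with a higher mean of the log2 values were Recql4 (0.16), Gins3 (0.12) and Orc5 (0.076), chosen for naming after their values were seen. Replicate 1 was above replicate 2 in both genotypes for 47 of the 49.

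Both Opa1 KO libraries were below both WT libraries for 6 of these 49 genes, Orc3, Gins4, Pole3, Rfc1, Rnaseh2a and E2f7, beside 15.7% of all genes tested. Gins4, the GINS subunit with the smallest gap between replicates, had 1167 and 1158 in Opa1 KO against 1303 and 1332 in WT (-0.18, SE 0.12). E2f7, an E2F that represses S phase genes, had 998 and 644 in Opa1 KO against 1296 and 1002 in WT (-0.51, SE 0.27), a separation of a few reads between the nearest libraries. Rnaseh2a, the catalytic subunit of RNase H2 that removes RNA from DNA, had 902 and 740 in Opa1 KO against 1078 and 920 in WT (-0.28, SE 0.17). Pole3, a small subunit of polymerase epsilon, had a log2 fold change of -0.20 (SE 0.14). E2f2, an activating E2F, had -0.49 (SE 0.32) with overlapping libraries.

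Mitosis genes, which act after S phase, showed the order of the replication genes, with a median gap between replicates of 0.83 on the log2 scale in Opa1 KO and 0.58 in WT. All 30 had a lower mean in Opa1 KO, beside 51.0% of all genes tested, and 0 were called by limma-trend or DESeq2. None of the 30 had libraries without overlap. Of all genes tested, 15.7% had both Opa1 KO libraries below both WT libraries and 15.2% had both above. The median log2 fold change of the mitosis genes was -0.37, and their summed level was 83897 and 47391 in Opa1 KO against 102727 and 67053 in WT. Mki67, the proliferation marker, had 7024 and 3949 in Opa1 KO against 8457 and 6080 in WT (-0.45, SE 0.35). For the mitotic kinesins the log2 fold change was -0.45 (SE 0.31, Cenpe) and -0.46 (SE 0.33, Kif11), and the checkpoint kinase Bub1b had -0.54 (SE 0.38).

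Genes that hold back or prepare S phase did not share this order so closely. Of 7 CDK inhibitors 6 were tested, 4 with a lower and 2 with a higher mean in Opa1 KO, and 0 were called. Cdkn1a (p21) had 1119 and 1367 in Opa1 KO against 1057 and 1096 in WT (0.20, SE 0.15), without overlap. Cdkn1c (p57) had 210 and 279 in Opa1 KO against 334 and 313 in WT (-0.42, SE 0.22), also without overlap. Of all genes tested, 15.2% had both Opa1 KO libraries above both WT libraries and 15.7% had both below. Cdkn2c (p18) had a log2 fold change of -0.44 (SE 0.26). Of 15 G1 regulators such as D-type cyclins, Rb family and other E2F genes, 9 had a lower and 6 a higher mean, at a median of -0.098 and with 0 called. In that list Cdk4, the kinase partner of the D-type cyclins, had 11917 and 8469 in Opa1 KO against 14717 and 10544 in WT (-0.31, SE 0.26), while E2f4 and Tfdp1 had -0.26 (SE 0.13) and -0.21 (SE 0.21). Histone genes, whose copies are nearly identical so that reads may be misassigned, split into 25 lower and 19 higher of 44 tested, with 0 called and a median of -0.13.

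Marker levels of other cell types differed between the 4 libraries. The YFP gate would be meant to leave out cells outside the Nestin lineage, such as microglia. The 8 ependymal genes summed to 8168 and 30758 in Opa1 KO against 5403 and 33797 in WT, so the libraries with the lower replication levels held the higher ependymal levels. Foxj1, the regulator of motile cilia, was 1191 and 4210 in Opa1 KO against 772 and 5009 in WT. The 8 microglia genes ran the other way, with 1761 and 446 in Opa1 KO against 1706 and 203 in WT. Endothelial genes were highest in Opa1 KO replicate 2, with sums of 1890 and 4871 in Opa1 KO against 1537 and 2480 in WT. None of these 3 lists had a gene called by limma-trend or DESeq2. The choroid plexus gene Ttr, looked at after its values were seen, had 3.26 and 6170 in Opa1 KO against 8.72 and 1.94 in WT. No defining marker in these lists was at 0 in any library. The part of these cell types in the replication values was not tested.

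Pericyte, oligodendrocyte, neuroblast and quiescent stem cell sums did not overlap between the genotypes. The 8 pericyte genes all had a higher mean in Opa1 KO, with sums of 6670 and 6954 in Opa1 KO against 3786 and 2697 in WT, and 4 of them (Pdgfrb, Abcc9, Vtn and Higd1b) were called higher by DESeq2, beside 0.457% of all genes called in either direction. The 8 oligodendrocyte genes summed to 60738 and 59380 in Opa1 KO against 45202 and 23659 in WT, with 0 called, and the 6 oligodendrocyte precursor genes to 3143 and 4535 in Opa1 KO against 5128 and 2163 in WT, with 0 called. Of 16 genes of quiescent stem cells and astrocytes, 15 had a higher mean in Opa1 KO, beside 9085 of all 18547 genes tested. The 16 summed to 290487 and 356184 in Opa1 KO against 210697 and 268899 in WT, and Slc1a2, Aldoc and Slc1a3 were called higher by DESeq2. Both Opa1 KO libraries were above both WT libraries for 7 pericyte, 8 oligodendrocyte, 1 precursor and 8 quiescent genes, beside 15.2% of all genes tested. All 13 neuroblast genes had a lower mean, with sums of 113678 and 95630 in Opa1 KO against 145526 and 128447 in WT, 10 of them without overlap and 0 called, beside 15.7% of all genes without overlap in that direction and 51.0% with a lower mean. The 10 genes of the activated and transit amplifying stages summed to 42481 and 32615 in Opa1 KO against 47193 and 38877 in WT. Of these 6 had a lower and 4 a higher mean, at a median log2 fold change of -0.050 and with 0 called. In 2 of the 10 genes both Opa1 KO libraries were below both WT libraries, beside 15.7% of all genes tested. These were the homeobox factors Dlx1 (log2 fold change -0.34, SE 0.17) and Dlx2 (-0.37, SE 0.20). The part of these lists in the replication values was not tested either.

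**Figure D4:**
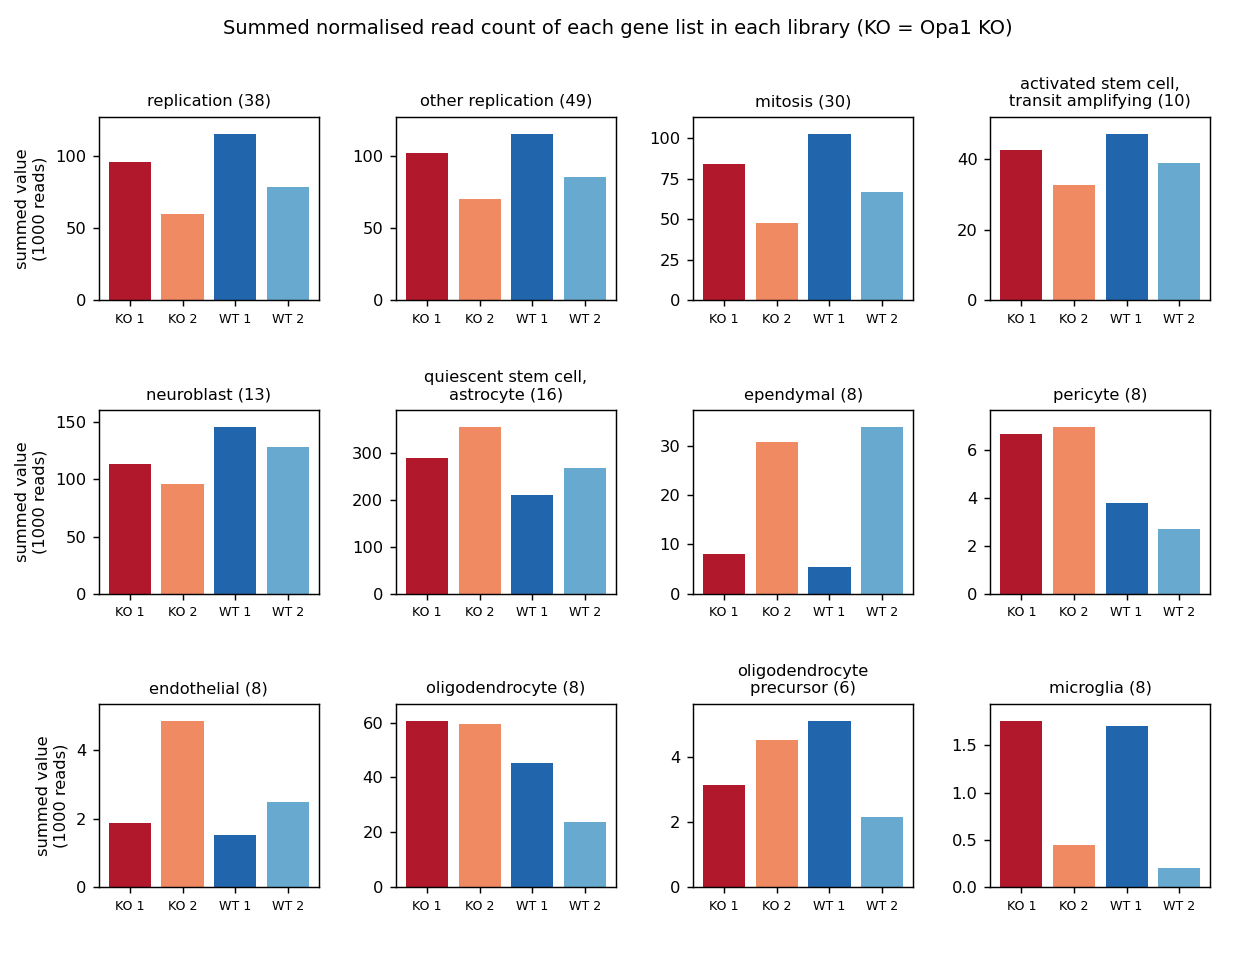
Summed normalised read count (unit on the axis: 1000 reads) of 12 gene lists in each library, with the Opa1 KO libraries left of the WT libraries, the number of genes in brackets and an axis from 0 in each panel. Replication and mitosis sums are lower in replicate 2 than in replicate 1 of both genotypes, while ependymal sums are higher in replicate 2.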

How the data were processed

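RNA sequencing was measured in 4 libraries, 2 Opa1 KO and 2 WT, grouped and numbered by the submitters' titles. The deposited values number the same libraries 2 and 4 in each genotype, in the same order. Per the submitters' processing notes, reads were handled with featureCounts, HISAT2, SAMtools and DESeq2 on mm10. No strand setting, library kit or annotation release was assumed, each being not given in the sources used here. Values were deposited as a normalised signal, the featureCounts read count that the authors divided by 1 size factor per library. Whole reads were recovered for 100% of values within a tolerance of 1e-06, and the totals were 19985853 to 23237326 reads per library with size factors from 0.919 to 1.04. The authors' fold changes and p-values in the same table, made with DESeq2, and the other 5 deposited files were not used.

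Of 55421 identifiers 55154 matched a symbol of GENCODE M21, which gave exon lengths and coordinates. The members and lists were chosen with earlier results of these data known. limma-trend 3.58.1 with robust moderation in R 4.3.3 was run with genotype alone as the factor on log2(value + 1) for the 18547 genes that reached a value of 10 in 2 or more libraries. P-values are two-sided, were adjusted by the Benjamini-Hochberg method over all genes tested, and were called under 0.05. The added 1 makes fold changes of low genes too small. The study's own tool, DESeq2 1.42.0, and edgeR 4.0.16 with TMM or relative log expression factors were run on the recovered reads as alternatives. Further alternatives were limma-voom, pseudocounts of 0.5 and 8, no filter and a filter at 50, scaling by library size or TMM, a replicate block and leaving out each library. The fits were tested on simulated counts with set fold changes. Those counts held no gap shared by replicate number, so the simulation does not cover such gaps. No test was run on a list as a whole. Named were all 38 members, Opa1, and by the smallest limma-trend p 6 further replication genes and 3 genes each of the mitosis, CDK inhibitor and G1 lists. For the cell type and histone lists, counts and summed levels stand in for the genes that the same rule would name, beside some defining markers. A few genes under this rule are not reported here. Promoter words were counted in RefSeq windows with Python 3.11.15. The rule showed promoters of the Mcm family and of Rfc2, for which no window was used here, and the promoters of other roles were added after the search. Figures were drawn with matplotlib 3.10.9.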

Additional observations from a re-analysis of the deposited data

How the results depend on the processing

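The lower mean of all 38 members in Opa1 KO held under both other pseudocounts, both other filters, both other scalings, edgeR, DESeq2, limma-voom and the block, with medians from -0.28 to -0.23 on the log2 scale, but not without every library. Leaving out 1 library at a time, the count of members with a lower mean ranged from 14 (without Opa1 KO replicate 2) to 38. Their median log2 fold change ranged from -0.64 to 0.040, and the count of members without overlap from 1 to 37. With 1 library left in a genotype, fewer values have to be separated. The matching share of all genes was not counted, so these counts without overlap cannot be set against a background. The number of genes called was 2 with no filter, 65 with DESeq2 and 182 with the replicate block, against 0 in the main test. The block was fitted to the same 18547 genes as the main test.

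The same replicate numbers recur in both genotypes, and the labels do not say what a shared number marks. Across 18547 genes the difference between replicates in Opa1 KO correlated with that in WT at 0.718. With the replicate block 2 members were called, Rrm2 (adjusted p = 0.0130) and Rrm1 (adjusted p = 0.0414), and 29 had an unadjusted p under 0.05. The number of all genes called with the block is given above. Their share at an unadjusted p under 0.05 is not given, so the 29 cannot be set against it.

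Of the 38 members 25 changed sign when at least 1 library was left out, and 13 did not. Their log2 fold changes ranged as follows: Orc1 -0.53 to 0.10, Orc6 -0.51 to 0.0088, Cdc6 -0.70 to 0.16, Cdt1 -0.44 to 0.28, Mcm2 -0.69 to 0.097, Mcm3 -0.69 to 0.078, Mcm5 -0.78 to 0.14, Mcm6 -0.65 to 0.032, Mcm7 -0.54 to 0.048, Mcm10 -0.63 to 0.12, Cdc45 -0.56 to 0.28, Pola2 -0.49 to 0.18, Pold1 -0.44 to 0.22, Pole -0.73 to 0.13, Pcna -0.57 to 0.17, Rfc3 -0.59 to 0.0096, Rfc5 -0.61 to 0.024, Lig1 -0.58 to 0.087, Tk1 -0.49 to 0.15, Uhrf1 -0.75 to 0.031, Hells -0.69 to 0.14, Chaf1a -0.34 to 0.023, Chaf1b -0.70 to 0.069, Ung -0.43 to 0.26 and E2f1 -0.52 to 0.15. Outside the members the ranges were Orc5 -0.044 to 0.20, Gins3 -0.17 to 0.41, Recql4 -0.26 to 0.58 and Foxj1 -1.16 to 1.54. Foxj1 was at -0.081 (edgeR with TMM), -0.090 (edgeR with relative log expression factors) and -0.089 (DESeq2). With E2F words of 7 letters, without the first T, 20 of 32 members held one (10.9% of all genes). With the full E2F words, 9 of 32 members held one within the 250 bases before the start (2.16% of all genes). The cause of these changes was not tested.

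With 2 libraries per genotype, a missed threshold does not show that the genes were unchanged.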
